A study of Mus musculus with 4 samples.

Results

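The tubulins and the enzymes that modify them were examined in RNA sequencing of whole lungs from mouse embryos at embryonic day 16.5. Genes were taken by symbol from the deposited table, where the symbol began with Tuba, Tubb, Tubg, Tubd1, Tube1, Tubgcp, Ttll, Tppp or Agbl, which gave 47 of 22556 genes. They comprised 8 α-tubulins, 9 β-tubulins including 1 pseudogene, 4 γ-, δ- or ε-tubulins, 5 γ-tubulin ring proteins, 13 Ttll genes, 3 Tppp genes and 5 Agbl genes. Of these, 35 reached a mean of 0.5 FPKM over the 4 libraries and were tested, and 12 did not. Ttll9 lay just inside that limit with a mean of 0.689 FPKM, and Ttll11 just outside it with 0.354 FPKM. FPKM is the number of fragments scaled to transcript length and to the mapped reads of the library, so levels of different genes can be compared.

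Control embryos (Shh-Cre; Stk11F/+) had 1 floxed and 1 intact allele of Stk11, a serine/threonine kinase and tumor suppressor, and Shh-Stk11 embryos (Shh-Cre; Stk11F/F) had 2 floxed alleles. Shh-Cre was present in all of them. Each genotype had 2 libraries. This driver acts in the endoderm, so floxed alleles were lost in the epithelium, whereas RNA came from the entire lung with its mesenchyme, vessels and blood. The labels gave the strain as C57BL/6, and the methods of the study described mixed backgrounds.

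Microtubules are polymers of α- and β-tubulin dimers, and γ-tubulin with the ring proteins starts their growth. In cilia, centrioles and neurons the tails of tubulin are extended with glutamate or glycine chains, which enzymes of the tubulin tyrosine ligase-like (Ttll) family add. Cytosolic carboxypeptidases, among them those of the Agbl genes, shorten the glutamate chains. The multiciliated cells of the airway, which appear in the lung at about this stage, build many axonemes from these dimers.

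Values recovered from the low end of the table corresponded to 29.8 M to 36.8 M reads per library, and 13623 to 13709 genes per library reached 0.5 FPKM. Stk11 was at 44.0 and 45.5 FPKM in Control and 29.5 and 26.0 FPKM in Shh-Stk11, a log2 fold change of -0.69 (limma adjusted p = 0.0499). Shh-Stk11 2 had Xist at 0.239 FPKM, against 65.1 to 169 FPKM in the other 3 libraries, and was the only library in which the 4 Y-linked genes examined reached 1 FPKM. Of 10 epithelial markers 10 were above the limit, and so were 10 of 10 mesenchymal and 8 of 8 endothelial ones. None of these 28 passed the limma threshold. An unadjusted p under 0.05 was reached by 3 epithelial markers, all higher in Shh-Stk11 (list median log2 fold change 0.18), and by 5 mesenchymal and 4 endothelial ones, all lower (medians -0.31 and -0.34, with log2 fold changes under 0 in 10 of 10 and 8 of 8). All 8 red blood cell genes tested had log2 fold changes under 0, with a median of -0.56 and 5 with an unadjusted p under 0.05. Of these 8, 1 was past the threshold, the embryonic globin Hba-x (-1.49, limma adjusted p = 0.0158). Over all 13770 genes tested, 8033 had log2 fold changes under 0. Of 7 neuroendocrine markers 4 were tested and none passed the threshold, with a median log2 fold change of 1.02 and 3 with higher values at an unadjusted p under 0.05 (Calca at 1.12 had the largest difference). The part of these cell types in the values of the members was not tested. Nothing in the labels says whether the libraries of a genotype came from separate litters, and the p-values measure the spread between these libraries.

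Few members passed the test between the genotypes, and those that did were glutamylases. Ttll6, which elongates glutamate chains, fell to about 26% of its Control level, and Ttll7, which starts chains on β-tubulin, rose 2.03-fold. Of the 35 members tested, 1 was higher and 1 lower in Shh-Stk11 by limma at an adjusted p under 0.05. Across all 13770 genes tested, 0.98% passed higher and 1.29% lower, together 2.27%. An unadjusted p under 0.05 was reached by 2 members with higher and 7 with lower values in Shh-Stk11, against 8.04% and 7.18% of all genes. Both Shh-Stk11 values lay below both Control values in 16 members (45.7%, all genes 27.6%) and above them in 5 (14.3%, all genes 19.2%). The median log2 fold change was -0.11 over the 35 members and -0.05 over all genes.

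**Figure D1:**
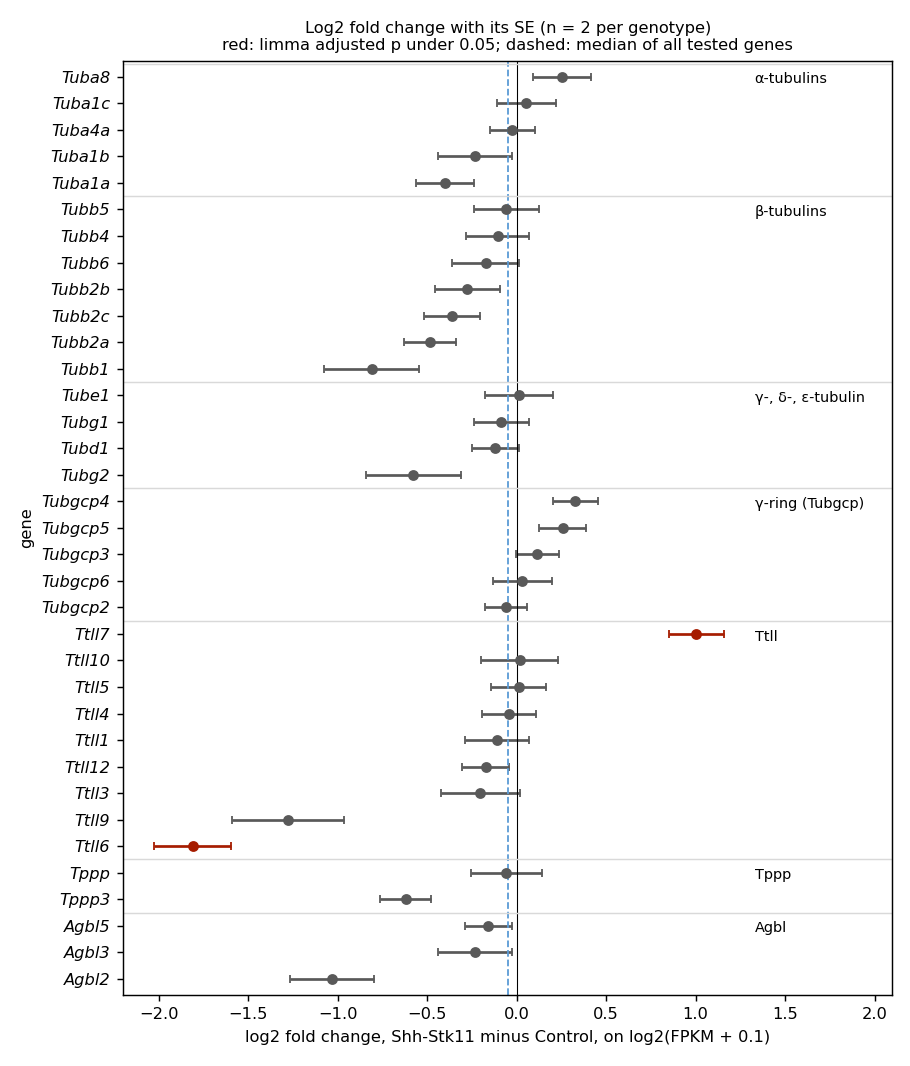
Log2 fold change of the 35 tested genes (x axis, Shh-Stk11 minus Control on log2(FPKM + 0.1)) with bars of 1 SE from limma, n = 2 per genotype, grouped by family on the y axis. Ttll6 at -1.81 and Ttll7 at 1.003 are drawn in red because their adjusted p is under 0.05, and the dashed line marks the median of all tested genes.

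Ttll6 was the member with the lowest log2 fold change. Its level was 2.64 and 2.88 FPKM in Control 1 and 2 and 0.680 and 0.751 FPKM in Shh-Stk11 1 and 2. All Control values lay above all Shh-Stk11 values, and the estimated reads behind them were 319, 288, 66.5 and 79.2. The Control mean was 2.76 ± 0.168 FPKM and the Shh-Stk11 mean 0.716 ± 0.0505 FPKM (SD, n = 2 each). The log2 fold change was -1.81 ± 0.216 (SE; limma adjusted p = 0.0141). Without Control 1 it was -1.87 (limma adjusted p = 0.0764) and without Control 2 it was -1.75 (limma adjusted p = 0.0959), so the call was lost with either Control library left out. Without Shh-Stk11 2, the library with Y-linked transcripts, the limma adjusted p was 0.0123.

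Ttll7 went the other way. It was at 3.77 and 3.17 FPKM in Control and at 6.98 and 7.08 FPKM in Shh-Stk11, with no overlap between the genotypes and 695 to 1633 estimated reads per library. The log2 fold change was 1.003 ± 0.154 (SE; limma adjusted p = 0.0324). It lost its call with any of the 4 libraries left out, with limma adjusted p-values of 0.0778 and 0.119 without Control 1 or 2 and of 0.0935 and 0.0698 without Shh-Stk11 1 or 2. The longest annotated Ttll7 transcript has 7394 bases and a GC content of 41.7%. With the trend of each library on transcript length and GC content removed, the log2 fold change was 0.70 (limma adjusted p = 0.0848).

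Ttll9, another glutamylase, was at 1.05 and 0.981 FPKM in Control and at 0.410 and 0.314 FPKM in Shh-Stk11, values that did not overlap and rested on 62.3, 48.3, 19.8 and 16.3 estimated reads. Its log2 fold change was -1.28 ± 0.311 (SE; limma adjusted p = 0.104), and the adjusted p was 0.0293 when limma moderated the variances without a trend on the mean level. Only its Control values are above 0.5 FPKM, so Ttll9 entered the test through the group in which it is high, and its p-value is conditional on that. When the limit was set at 0.1 FPKM, which both genotypes exceed, the limma adjusted p was 0.0722. The other 6 Ttll genes tested had log2 fold changes from -0.20 to 0.02. They included Ttll1, the catalytic subunit of a glutamylase complex and the most abundant of the family, at 11.5 and 11.2 FPKM in Control and 8.93 and 12.4 FPKM in Shh-Stk11. Ttll12 was at 9.18 and 8.83 FPKM in Control and 8.35 and 7.62 FPKM in Shh-Stk11, and Ttll4, which starts chains on β-tubulin as Ttll7 does, was at 7.40 and 6.79 FPKM in Control and 7.52 and 6.28 FPKM in Shh-Stk11. The glycylases Ttll3 and Ttll10 had log2 fold changes of -0.20 and 0.02. Summed over the 13 Ttll genes the level was 44.6 and 42.5 FPKM in Control and 41.6 and 42.9 FPKM in Shh-Stk11, so the sums overlapped.

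The Agbl carboxypeptidases had 3 tested members with a median log2 fold change of -0.23, and none passed the limma threshold (unadjusted p under 0.05 in 1). Agbl2 was at 2.12 and 2.17 FPKM in Control and 1.15 and 0.858 FPKM in Shh-Stk11. Its genotypes did not overlap, and the log2 fold change was -1.03 ± 0.234 (SE; limma adjusted p = 0.0870). Agbl5, which removes the glutamate at the branch point, was at 9.92 and 8.80 FPKM in Control and 8.34 and 8.38 FPKM in Shh-Stk11. Agbl3 was at 1.78 and 1.67 FPKM in Control and 1.38 and 1.52 FPKM in Shh-Stk11. Agbl4 stayed under the limit, at 0.445 and 0.477 FPKM in Control and 0.122 and 0.151 FPKM in Shh-Stk11, from 62.4, 55.4, 13.9 and 18.5 estimated reads. When the limit was set at 0.1 FPKM, its limma adjusted p was 0.101.

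Tppp3, a tubulin polymerization-promoting protein, was the most abundant member outside the α- and β-tubulins. It was at 68.1 and 64.1 FPKM in Control and 38.8 and 47.6 FPKM in Shh-Stk11, with both Shh-Stk11 values below both Control values. The log2 fold change was -0.62 ± 0.143 (SE; limma adjusted p = 0.0904). Tppp itself lay between 1.62 and 1.73 FPKM in all 4 libraries.

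Members with lower values in Shh-Stk11 were set beside the markers of multiciliated cells, a list that in part holds genes the study named from these samples. Of 24 listed genes tested, 16 were lower by limma at an adjusted p under 0.05 and none higher, with a median log2 fold change of -1.55. An unadjusted p under 0.05 was reached by 20 with lower values and by 1 with higher values, the factor Rfx3. Rfx3 was at 2.40 and 2.15 FPKM in Control and 4.13 and 3.35 FPKM in Shh-Stk11 (log2 fold change 0.69, limma adjusted p = 0.134). Among the 20 are Dnah9 and Spag16, with Shh-Stk11 means of 0.293 and 0.475 FPKM. Both entered the test through Control, the group in which they are high, and their p-values are conditional on that. Foxj1, the transcription factor of motile ciliogenesis, was at 16.1 and 15.4 FPKM in Control and 4.77 and 4.71 FPKM in Shh-Stk11, which was 30.1% of the Control mean. The summed level of the list was 215 and 225 FPKM in Control and 72.5 and 67.3 FPKM in Shh-Stk11, and none of its genes was at 0. For the 7 tested members with lower values and an unadjusted p under 0.05, the Shh-Stk11 mean was 25.9% (Ttll6), 35.7% (Ttll9, which entered the test through Control), 46.9% (Agbl2), 56.8% (Tubb1), 65.3% (Tppp3), 71.0% (Tubb2a) and 75.1% (Tuba1a) of the Control mean, and it was 77.3% for Tubb2c. Of the members under the limit it was 29.6% for Agbl4, 60.3% for Ttll13 and 19.3% for Tubb3, which rests on 3.18 to 35.0 estimated reads per library. How far the number of ciliated cells sets these values was not tested, and fewer cells of a type and less RNA per cell cannot be told apart in whole lungs.

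**Figure D2:**
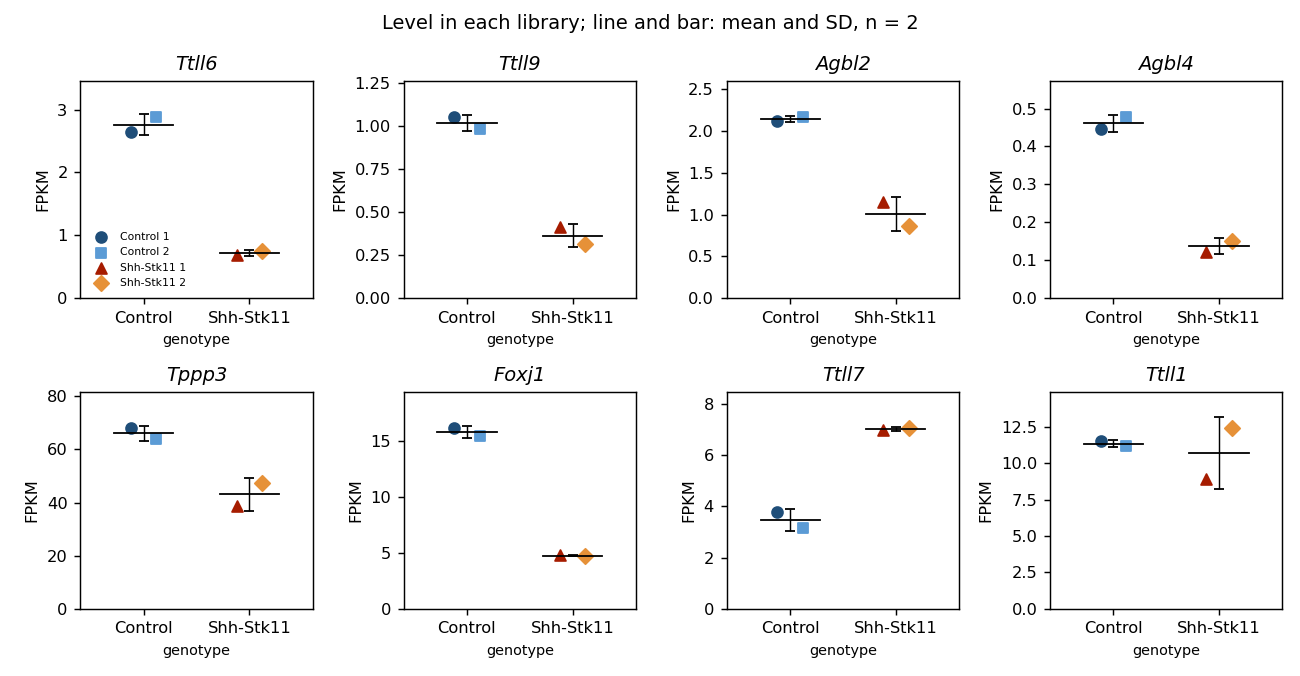
Level in FPKM (y axis, from 0) of 7 members and Foxj1 in each library, by genotype (x axis), with the mean as a line and the SD as a bar, n = 2. The 2 Shh-Stk11 points lie below both Control points for Ttll6, Ttll9, Agbl2, Agbl4, Tppp3 and Foxj1, above them for Ttll7, and on either side of them for Ttll1.

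Promoter sequences are shown for the pair of called genes, for Agbl3 and Ttll9, whose windows hold the longest matches to the X-box, the motif of RFX factors, which act in ciliogenesis, and for Agbl2, which had an unadjusted p under 0.05 and holds a half-site of that motif. Each runs from 150 bases before to 30 bases after the annotated start, on the + strand of RefSeq GRCm38.p6, with matches in capitals.
Ttll6 (chr11:96133636-96133815): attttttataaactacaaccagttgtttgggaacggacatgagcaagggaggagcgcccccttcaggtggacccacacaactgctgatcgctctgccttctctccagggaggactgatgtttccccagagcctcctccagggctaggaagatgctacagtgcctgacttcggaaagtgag
Ttll7 (chr3:146852217-146852396): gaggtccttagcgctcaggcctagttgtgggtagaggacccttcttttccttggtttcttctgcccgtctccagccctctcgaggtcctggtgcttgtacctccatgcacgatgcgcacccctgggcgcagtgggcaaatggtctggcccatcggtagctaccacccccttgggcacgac
Ttll9 (chr2:152962335-152962514): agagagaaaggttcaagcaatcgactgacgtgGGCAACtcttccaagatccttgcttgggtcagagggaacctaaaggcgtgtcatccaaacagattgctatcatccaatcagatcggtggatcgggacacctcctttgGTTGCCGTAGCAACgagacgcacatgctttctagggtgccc
Agbl2 (chr2:90782577-90782756): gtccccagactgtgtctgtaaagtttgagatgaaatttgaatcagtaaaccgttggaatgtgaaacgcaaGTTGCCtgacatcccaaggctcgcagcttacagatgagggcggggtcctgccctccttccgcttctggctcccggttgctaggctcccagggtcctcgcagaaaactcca
Agbl3 (chr6:34780282-34780461): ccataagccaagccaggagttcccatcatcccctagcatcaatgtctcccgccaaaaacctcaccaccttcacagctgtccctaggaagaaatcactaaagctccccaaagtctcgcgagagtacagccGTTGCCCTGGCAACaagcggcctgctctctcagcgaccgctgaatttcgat

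The full X-box was searched as GTTNCC, then any 2 letters, then GGNAAC, which is its own reverse complement, and its half-site as GTTGCC on both strands, over windows of 300 bases that end 50 bases after the start. RefSeq windows were at hand for 39 of the 47 members. The half-site matched in 9 of the 39 (23.1%), against 14.1% of all genes with a window, and the full X-box in 1, against 0.529%. That 1 was Agbl3, whose match begins at position -21 from the start, and whose log2 fold change was -0.23. In Ttll9 a half-site begins at position -11 and continues as the 14 letters GTTGCCGTAGCAAC, which depart from the full X-box at 1 letter. A looser form, GTTNCC, any 3 letters and GNAAC, written after that stretch was seen, matched in Ttll9 and Agbl3 and in 0.936% of all genes. Agbl2 had 2 windows, 1 with a half-site at -80 and 1 without a match. The window shown for Agbl2 was picked because it holds the match. No half-site lay in the windows of Ttll6 and Ttll7. The other half-sites were in Ttll3, Ttll5, Ttll8, Ttll10, Tuba1c and Tuba8. A match is a string of letters, and binding was not measured here.

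Among the α-tubulins the summed level was 266.7 and 356.3 FPKM in Control and 267.2 and 266.6 FPKM in Shh-Stk11, so that Control 1 lay among the Shh-Stk11 values and Control 2 above the other 3 libraries (exact permutation test, two-sided, p = 0.667, where 2 against 2 libraries cannot go below 0.3333). No α-tubulin passed the limma threshold (unadjusted p under 0.05 in 1 of 5), and the median log2 fold change was -0.02, or 0.12 with length and GC trends removed. Tuba1b, a ubiquitous isotype, was at 102.7 and 153.8 FPKM in Control and 111.8 and 102.4 FPKM in Shh-Stk11. Tuba1a, the main α-tubulin of young neurons, was at 103.3 and 135.8 FPKM in Control and 91.3 and 88.1 FPKM in Shh-Stk11, without overlap. Its log2 fold change was -0.40 (limma adjusted p = 0.319), and it was -0.60 without Control 1 and -0.20 without Control 2. Tuba8 was at 30.03 and 28.5 FPKM in Control and 30.2 and 40.2 FPKM in Shh-Stk11, where Shh-Stk11 2 stood above the rest. Tuba1c and Tuba4a had log2 fold changes of 0.05 and -0.02.

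Within the α-tubulin sum, Tuba1b held 38.4% to 43.2% in the 4 libraries. Tuba1a held 38.7% and 38.1% in Control and 34.2% and 33.1% in Shh-Stk11, and Tuba1c 7.29% and 7.27% against 8.28% and 9.20%, and these shares did not overlap. Tuba8 held 11.26% and 8.01% in Control and 11.32% and 15.1% in Shh-Stk11.

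The 7 β-tubulins tested all had log2 fold changes under 0, as did 8033 of all 13770 genes tested. Those of the β-tubulins ran from -0.81 to -0.06, with a median of -0.28, or -0.14 with length and GC trends removed. None of the 7 passed the limma threshold (unadjusted p under 0.05 in 2). The summed level was 655.7 and 830.5 FPKM in Control and 686.3 and 635.4 FPKM in Shh-Stk11 (exact permutation test, two-sided, p = 0.667). Over the 12 α- and β-tubulins tested, Control 2 lay above Control 1 by a median of 0.33 on the log2 scale, against 0.02 over all genes. Control 2 was also the highest library for the summed G2/M cell cycle genes, at 633 and 840 FPKM in Control and 760 and 691 FPKM in Shh-Stk11, and for the heart muscle genes, at 122 and 252 FPKM in Control and 150.2 and 61.1 FPKM in Shh-Stk11. In neither list did a gene pass the limma threshold (unadjusted p under 0.05 in 2 of 16 and 0 of 7). The 2 were Mki67 and Cenpe, both higher in Shh-Stk11 without overlap, with log2 fold changes of 0.85 and 0.69. Of the 16 G2/M genes, 10 had log2 fold changes under 0, and the median was -0.05. The part of the G2/M and heart muscle genes in the tubulin values was not tested. Without Control 1 the β-tubulin median was -0.51, and without Control 2 it was -0.20.

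Tubb5, the most abundant of all members, was at 402.8 and 502.7 FPKM in Control and 457.6 and 408.6 FPKM in Shh-Stk11. Tubb2c, now named Tubb4b and a main β-tubulin of axonemes, was at 148.4 and 186.8 FPKM in Control and 128.7 and 130.4 FPKM in Shh-Stk11, without overlap, and its log2 fold change was -0.36 (limma adjusted p = 0.348). Tubb6 was at 48.3 and 69.4 FPKM in Control and 53.5 and 49.3 FPKM in Shh-Stk11. Tubb2a, an isotype common in nervous tissue, was at 38.9 and 49.2 FPKM in Control and 31.2 and 31.4 FPKM in Shh-Stk11, which gave -0.48 (limma adjusted p = 0.176), with -0.65 without Control 1 and -0.32 without Control 2. These Tubb2a values did not overlap either. By share of the β-tubulin sum, Tubb5 held 61.4% and 60.5% in Control and 66.7% and 64.3% in Shh-Stk11, Tubb2c 22.6% and 22.5% against 18.8% and 20.5%, and Tubb2a 5.94% and 5.92% against 4.54% and 4.94%. These shares did not overlap between the genotypes, nor did that of Tubb1, whereas the shares of Tubb6, Tubb2b and Tubb4 did. Of the 12 α- and β-tubulins above the limit, 4 had a share without overlap that was higher and 4 one that was lower in Shh-Stk11. These shares are tied to each other through their sum. By level, 1 of the 12 was higher and 4 were lower without overlap, against 19.2% and 27.6% of all genes.

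**Figure D3:**
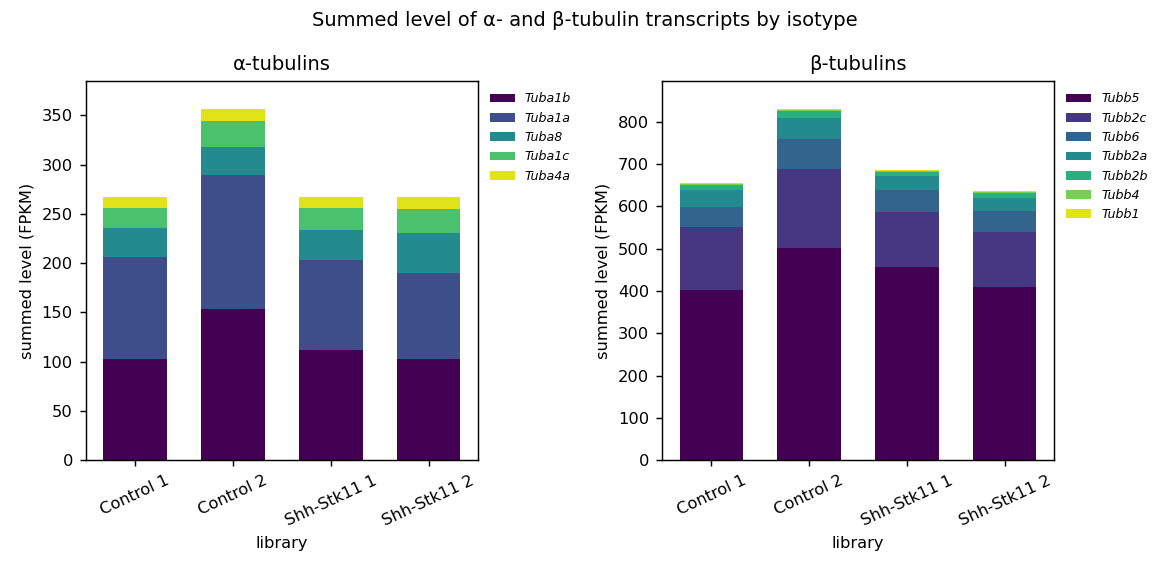
Summed FPKM (y axis, from 0) of the α-tubulins (left) and β-tubulins (right) that reached the limit, stacked by isotype for each library (x axis). The Control 2 bars, at about 356.3 and 830.5 FPKM, are the tallest of each panel, and Tuba1b and Tuba1a, or Tubb5 and Tubb2c, make up most of each bar.

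Tubb1, the β-tubulin of platelets and megakaryocytes, was at 2.47 and 2.74 FPKM in Control and 1.84 and 1.13 FPKM in Shh-Stk11. The genotypes did not overlap, and the log2 fold change was -0.81 ± 0.264 (SE; limma adjusted p = 0.203), with -1.14 without Shh-Stk11 1 and -0.48 without Shh-Stk11 2. Of 11 platelet markers 8 were tested, all with log2 fold changes under 0 (8033 of 13770 over all genes) and a median of -0.35. None passed the limma threshold (unadjusted p under 0.05 in 2, Gp9 at -0.81 and Clec1b at -0.78). Their summed level was 34.1 and 40.6 FPKM in Control and 33.2 and 27.1 FPKM in Shh-Stk11, and none was at 0. The part of platelets in the Tubb1 values was not tested.

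Tubb3, the neuronal β-tubulin, stayed under the limit at 0.156 and 0.688 FPKM in Control and 0.0641 and 0.0991 FPKM in Shh-Stk11, where Control 2 stood apart. Of 15 neuron markers 10 were under the limit as well and none was at 0 in all libraries, with Elavl3 at a mean of 0.0264 FPKM. Of the 5 tested none passed the limma threshold (unadjusted p under 0.05 in 3). Ret and Gap43 had the largest differences, with log2 fold changes of 1.46 and -0.66. Ret was at 0.331 and 0.292 FPKM in Control and 0.956 and 1.11 FPKM in Shh-Stk11. It entered the test through the group in which it is high, and its p-value is conditional on that. The list summed to 31.8 and 43.9 FPKM in Control and 36.4 and 34.8 FPKM in Shh-Stk11, with Control 2 highest. The part of neurons in the Tubb3, Tuba1a and Tubb2a values was not tested.

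**Figure D4:**
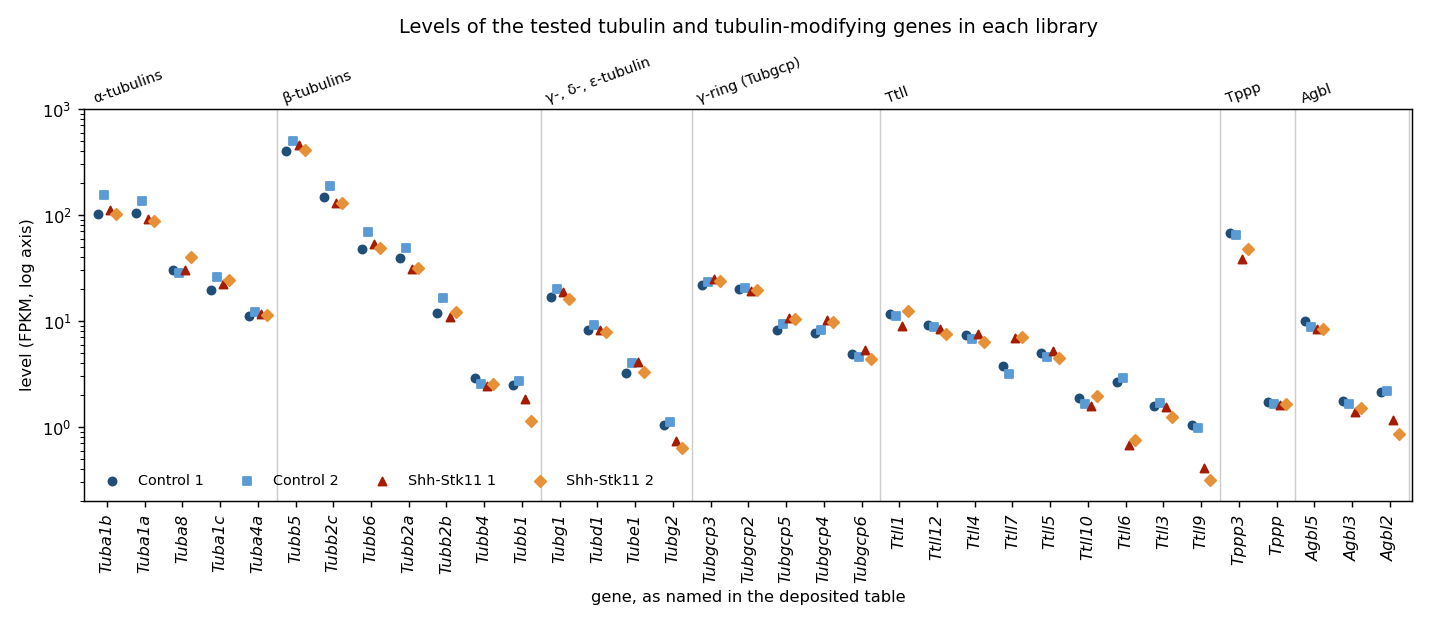
Level of the 35 tested genes in each of the 4 libraries (y axis, FPKM on a log axis), grouped by family and ordered by mean level (x axis). Levels run from Tubb5, at 402.8 FPKM or more, down to Ttll9, at 0.314 FPKM in its lowest library, and the Control and Shh-Stk11 points are farthest apart for Ttll6, Ttll9, Ttll7 and Agbl2.

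The γ-, δ- and ε-tubulins had 4 members above the limit and none past the limma threshold (unadjusted p under 0.05 in 0). Tubg1, the γ-tubulin that nucleates microtubules, was at 16.8 and 20.2 FPKM in Control and 18.8 and 16.0 FPKM in Shh-Stk11. Tubd1 and Tube1, which act in the triplet microtubules of centrioles, were at 8.30 and 9.11 against 8.14 and 7.85 FPKM and at 3.26 and 4.02 against 4.07 and 3.28 FPKM. Only Tubg2 and Tubd1 of the 4 showed no overlap, both lower in Shh-Stk11 (50%, all genes 27.6%). Tubg2 had the lowest level of the class, with 1.04 and 1.11 FPKM in Control and 0.742 and 0.632 FPKM in Shh-Stk11, and a log2 fold change of -0.58 (limma adjusted p = 0.383).

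The 5 γ-tubulin ring proteins had a median log2 fold change of 0.12, and none passed the limma threshold (unadjusted p under 0.05 in 1). Tubgcp3 and Tubgcp2, which form the small core complex with γ-tubulin, were at 21.7 and 23.5 against 24.9 and 23.99 FPKM and at 20.1 and 20.4 against 19.1 and 19.8 FPKM. Tubgcp4, a component of the full ring, was at 7.66 and 8.30 FPKM in Control and 10.2 and 9.88 FPKM in Shh-Stk11, without overlap and with a log2 fold change of 0.33 (limma adjusted p = 0.292). Tubgcp5, also of the full ring, was at 8.25 and 9.41 FPKM in Control and 10.7 and 10.4 FPKM in Shh-Stk11, again without overlap. Tubgcp3 was also higher, and Tubgcp2 lower, without overlap. Of the 5, 3 were thus higher (60%, all genes 19.2%) and 1 lower (20%, all genes 27.6%).

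Among the other members under the limit, the glutamylases Ttll11 and Ttll13 were at 0.320 and 0.308 against 0.327 and 0.460 FPKM and at 0.318 and 0.338 against 0.139 and 0.257 FPKM. Tppp2, Ttll2, Tuba3b and Tubb2a-ps2 were listed at 0 in every library. Agbl1, Ttll8, Tuba3a and Tubal3 were the remaining ones, none above 0.0685 FPKM in any library.

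Tubulin isotypes are so alike that reads of 50 bases cannot always be assigned. Each member's longest GENCODE transcript was therefore split into words of 50 bases, and the share found in transcripts of other genes was taken. It was 83.1% for Tuba1b, 75.5% for Tuba1a and 60.99% for Tuba1c, which share words with each other and with pseudogenes. It was 55.5% for Tubb2c, mostly with the pseudogene Tubb4b-ps1, 49.6% for Tubb2a and 39.3% for Tubb2b. Opposite-strand neighbors accounted for 47.4% of the words of Tubgcp4, which overlaps Trp53bp1, and for 47.7% of those of Tuba4a, which overlaps Stk16. The levels of these genes are uncertain, since how shared reads were divided is not given in the sources used here. How far shared words move the levels was not measured. The share was 0% for Ttll6, Ttll7, Ttll9, Agbl3, Agbl4, Tubb1, Tubb3 and Tubb6, 1.73% for Agbl2, 0.742% for Tppp3 and 0.115% for Tubb5.

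**Figure D5:**
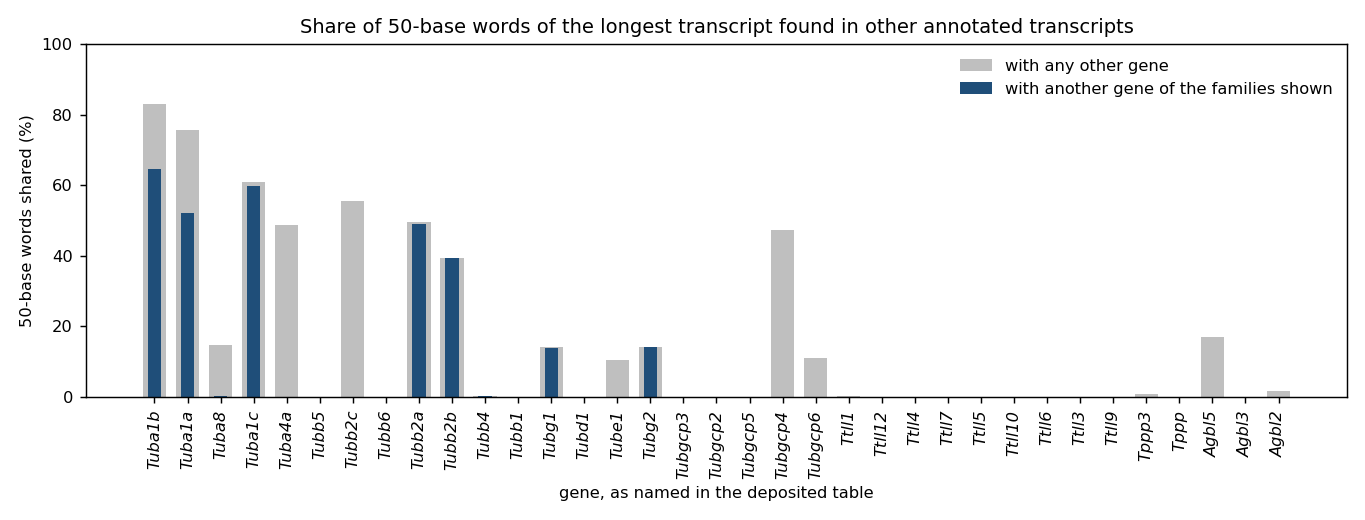
Share of the 50-base words of each tested gene's longest transcript (y axis, percent) that also occur in transcripts of any other gene (grey) or of another gene of the families shown (blue), by gene (x axis). Tuba1b has the highest share at 83.1%, and the bars of Ttll6, Ttll7 and Ttll9 are at 0.

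Other genes that act on tubulin were listed for comparison. Of 21 folding genes (the TRiC chaperonin, prefoldins and tubulin cofactors), none passed the limma threshold (unadjusted p under 0.05 in 1) and the median log2 fold change was -0.13, with Arl2 at -0.33 and Pfdn5 at -0.30 farthest from 0. Of 15 further tubulin-modifying genes, such as the acetyltransferase Atat1, the deacetylase Hdac6 and the detyrosinase Vash1, none passed it (unadjusted p under 0.05 in 1), the median was -0.14, and Setd2 at 0.62 and Sirt2 at -0.34 were farthest from 0. Of 16 partners of the γ-tubulin ring none passed it (unadjusted p under 0.05 in 1), with a median of 0.01 and with Haus3 at 0.52 and Akap9 at 0.50 farthest from 0. Of 26 microtubule-associated and severing genes tested 1 was higher and none lower past the limma threshold, with an unadjusted p under 0.05 in 2 with higher and 3 with lower values (19.2%, all genes 15.2%) and a median of -0.02. The gene past the threshold was Dclk1, a kinase that binds microtubules, at 2.43 and 1.56 FPKM in Control and 4.93 and 6.40 FPKM in Shh-Stk11, a log2 fold change of 1.48 (limma adjusted p = 0.0408). Katnal2, of the katanin severing family, lay just outside the threshold at 3.54 and 3.58 FPKM in Control and 1.86 and 1.46 FPKM in Shh-Stk11, a log2 fold change of -1.07 (limma adjusted p = 0.0511).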

How the data were processed

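The authors deposited FPKM values, 1 table of genes by 4 libraries, from single-end reads of 50 bases of total RNA. The submitters' processing notes name TopHat2 2.0.13, Cufflinks 2.2.1 and the builds GRCm38 and mm9, with no role, so no coordinates come from the table. Symbols were matched to GENCODE M21 (20242 directly, 1917 by RefSeq synonym, 397 unmatched). The 13770 genes whose mean reached 0.5 FPKM were fitted in R 4.3.3 with limma 3.58.1 (lmFit, eBayes with trend) on log2(FPKM + 0.1), genotype as the only term, two-sided, Benjamini-Hochberg adjustment over all genes tested, threshold 0.05. Fold changes on that scale understate those of low genes. The script was tested on simulated data. Of 1717 genes above 0 and under 0.3 FPKM in every library, 78.5% were whole multiples of a step (tolerance 0.05 steps), which gave the estimated reads; they cover counting error only and contain any scaling by the authors.

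The members and gene lists were chosen with earlier results of these data known. Named were members past the threshold or with an unadjusted p under 0.05, the 3 most abundant per class, members under the limit that reached 0.3 FPKM in a library, Stk11, Foxj1, sex-linked genes and, per list of other microtubule genes, genes past the threshold or otherwise the 2 with the largest change. Tubg2, Tubgcp5, Tuba1c, Tuba4a, Ttll3, Ttll10, Agtpbp1, Elavl3, Hba-x, Rfx3, Dnah9, Spag16, Mki67, Cenpe, Calca and Katnal2 were named after their values were seen. Cell type and cell cycle lists are given by their counts and sums, with single genes as examples. Alternatives covered the pseudocount, filter, scaling, variance trend, replicate block, length and GC trends, and each library left out.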

Additional observations from a re-analysis of the deposited data

How the results depend on the processing

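None of the 10 members followed (those with an unadjusted p under 0.05, and Agbl4) changed direction in the alternatives in which they were tested (Agbl4 in 2 only, and Agbl2, Ttll6, Ttll9 and Tubb1 not at a filter of 5 FPKM), and those that did not pass the threshold stayed on that side, except Ttll9 without a variance trend (adjusted p = 0.0293) and Agbl2 with the crossed block. With a pseudocount of 1, which shrinks low genes most, the log2 fold changes were -1.13 for Ttll6, -0.57 for Ttll9 and -0.65 for Agbl2. The number of genes called, 313, was 200 at a filter of 5 FPKM (110 higher and 90 lower, against 135 and 178), 1 without a filter, 187 with length and GC trends removed and 104 to 319 with a library left out. Called members, 2 in the main analysis, numbered 0 at a filter of 5 FPKM, where Ttll6 was not tested and Ttll7 had an adjusted p of 0.0559, 0 without a filter (adjusted p = 0.218 for Ttll6 and 0.256 for Ttll7, among 22556 genes), 1 with the trends removed and 0 to 1 with a library left out. By limma, the members with an unadjusted p under 0.05 numbered 5 and 8 at the filter of 5 FPKM and without one.

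Both genotypes number their libraries 1 and 2, and the deviations of same-numbered libraries had a correlation of -0.114. The numbers were not taken as a pairing, and whether libraries share a litter is not given in the labels. With the replicate block 13 genes and 0 members were called (9 with an unadjusted p under 0.05), and with the block and length and GC trends removed 11 genes and 0 members (6 with an unadjusted p under 0.05). A crossed replicate block, added after the data were seen, called 675 genes and 3 members.

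Class medians moved as follows. The α-tubulin median was 0.12 with length and GC trends removed, with or without the block, and -0.15 to 0.06 with a library left out. The β-tubulin median was -0.14 with the trends removed and -0.51 to -0.20 with a library left out, and the ranges were -0.20 to -0.00091 for the γ-, δ- and ε-tubulins, 0.09 to 0.18 for the ring proteins, -0.17 to -0.09 for Ttll, -0.42 to -0.26 for Tppp and -0.30 to -0.17 for Agbl. The ring median was 0.19 at a filter of 5 FPKM. The Tppp median was -0.62 at that filter, where Tppp3 alone was left, and -0.057 without a filter. The Agbl median was -0.15 with a pseudocount of 1, -0.63 at a filter of 0.1 FPKM, which adds Agbl4, -0.16 at 5 FPKM, where Agbl5 alone was left, and -0.39 with the trends removed, with or without the block. The Shh-Stk11 mean of the summed level stayed below the Control mean in the 3 scalings tried, and with length and GC trends removed the log2 ratio was -0.06 for α- and -0.01 for β-tubulins, against -0.22 and -0.17. With 2 libraries per genotype, each p-value rests on the variance limma borrows across genes.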
